A study of Homo sapiens with 2 samples.

Results

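The securins, separase and cohesin are the proteins that hold sister chromatids together and let them part at anaphase. In PC3 cells treated with siRNA against SUB1, the probes for the securins PTTG1 and PTTG2 gave less than the Non-T signal by more than 2-fold with both siRNAs, and the probe for the acetyltransferase ESCO2 was near the 2-fold line. The separase gene ESPL1 and the cohesin subunit gene RAD21 had smaller ratios below 1 with both siRNAs, whereas the other 4 cohesin subunit genes had no common direction. The set held 10 genes, taken as every probe whose gene name on the array was PTTG1, PTTG2, PTTG1IP, ESPL1, RAD21, SMC1A, SMC3, STAG1, STAG2 or ESCO2, under its current symbol or an older one. They had 15 of the 41000 gene probes on the array, 6 genes with 1 probe and 4 with more, and 14 of those probes were among the 25673 that passed the filter on dim probes. The rule used no measured value, although the genes were picked with earlier results of these data known.

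Expression was measured in PC3, an established human prostate cancer cell line, to ask which transcripts differ once SUB1, a transcriptional coactivator also known as PC4, is knocked down. Each of 2 dual-colour arrays on 1 slide carried Non-T siRNA cells in Cy3 (the green dye) and SUB1 siRNA cells in Cy5 (the red dye), with SUB1 siRNA 1 on the first array and SUB1 siRNA 2 on the second. All cells had been transfected a second time with the same duplex and were harvested 72 h after the first transfection. Each siRNA had 1 array and the dyes were not swapped, so dye bias and knockdown cannot be told apart, and the sources used here do not say whether a single Non-T extract served both arrays. The knockdown was transient, in 1 cell line, and each siRNA was a single duplex.

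The targeted gene was checked first. The brightest SUB1 probe read 9433 in Non-T cells against 958 with siRNA 1, and 7027 against 733 with siRNA 2, as normalized intensity in arbitrary units. Its log2 ratios were −3.30 and −3.26, those of the other 3 probes ran from −3.75 to −1.81 and from −3.50 to −1.57, and SUB1 was the 1 gene of 19218 with an adjusted p under 0.05 in limma (adjusted p = 0.0255). The epithelial keratin genes KRT8 and KRT18, the vimentin gene VIM and CD44 gave signal well above background in all channels, as did 1 of 3 probes for KLK3, the gene for prostate-specific antigen, which PC3 cells are known to lack or hold at a low level. The probes for the leukocyte gene PTPRC were not well above background in any channel, and the endothelial PECAM1 probe was dim, between 95.7 and 132. In Cy3 54.3% of gene spots on each array gave signal well above background, and in Cy5 67.2% and 64.5% did.

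Sister chromatids are joined from replication until anaphase by cohesin, a ring of SMC1A, SMC3 and RAD21 with STAG1 or STAG2 bound to it. ESCO2 acetylates SMC3 during replication and so makes the ring hold fast. Separase, the protease encoded by ESPL1, opens the ring at anaphase by cutting RAD21, and until then it is held inactive by securin, the product of PTTG1, which the anaphase-promoting complex marks for destruction. PTTG1 is overexpressed in many tumours and was named pituitary tumour-transforming gene for its discovery there, while PTTG2 is an intronless copy of it and PTTG1IP encodes a protein that binds PTTG1.

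The stretches just before the start sites are shown because genes that peak in G2 and mitosis often carry CCAAT boxes and a cell cycle gene homology region (CHR) there. They are the 250 bases before the RefSeq start on GRCh38.p14, given in transcript direction for PTTG1 at chr5:160421605-160421854, PTTG2 at chr4:37960148-37960397, ESPL1 at chr12:53268049-53268298 and SMC3 at chr10:110567445-110567694, all on the plus strand. Capitals mark the searched letters, which were CCAAT and, for the CHR, TTTGAA or TTCGAA, each on either strand.
PTTG1: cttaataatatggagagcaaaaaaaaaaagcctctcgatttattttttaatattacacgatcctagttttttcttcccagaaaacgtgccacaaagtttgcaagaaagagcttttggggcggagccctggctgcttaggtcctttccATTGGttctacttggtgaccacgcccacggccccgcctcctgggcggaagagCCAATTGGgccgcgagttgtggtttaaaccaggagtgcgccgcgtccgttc
PTTG2: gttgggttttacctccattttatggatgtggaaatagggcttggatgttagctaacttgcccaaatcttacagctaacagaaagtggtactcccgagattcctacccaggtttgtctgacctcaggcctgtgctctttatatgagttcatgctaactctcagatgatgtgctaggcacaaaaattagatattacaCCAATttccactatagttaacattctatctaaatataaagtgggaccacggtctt
ESPL1: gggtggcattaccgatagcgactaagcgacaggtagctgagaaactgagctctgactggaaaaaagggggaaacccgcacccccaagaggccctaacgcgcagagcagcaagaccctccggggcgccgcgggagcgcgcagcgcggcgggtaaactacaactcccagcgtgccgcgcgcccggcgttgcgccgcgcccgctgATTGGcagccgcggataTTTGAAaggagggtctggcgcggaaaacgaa
SMC3: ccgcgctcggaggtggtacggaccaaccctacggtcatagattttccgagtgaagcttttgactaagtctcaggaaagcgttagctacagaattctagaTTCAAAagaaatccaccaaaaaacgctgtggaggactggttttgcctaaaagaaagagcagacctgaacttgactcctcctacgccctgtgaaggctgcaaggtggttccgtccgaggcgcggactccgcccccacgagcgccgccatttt

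PTTG1 held 3 CCAAT matches, which began 103, 51 and 48 bases before the start, and the 2 nearer ones overlap on opposite strands as a single run of capitals. PTTG2 held 1 CCAAT match at 55 bases. ESPL1 held a CCAAT match at 48 bases and a CHR match at 31 bases, the 1 window of the set with both. SMC3 is shown beside them because its ratio was near 0 on the siRNA 1 array, and it held a CHR match at 151 bases and no CCAAT. STAG2, whose ratios were also near 0, and STAG1 did hold CCAAT, with the first matches at 157 and 241 bases. Windows were found for 8 of the 10 genes, RAD21 and ESCO2 having none. Of 12 windows in all, 7 held CCAAT, 2 CHR letters and 1 both, against 32.0%, 14.3% and 5.05% of 35116 windows of the same length. These windows are not all separate stretches. PTTG1 has another start, whose window overlaps the one shown and holds the same 3 CCAAT matches at 158, 106 and 103 bases. By gene, 5 of the 8 held CCAAT in a window. Some genes had more than 1 window, and the share of all genes with a match was not counted, so the 32.0% does not apply to this count. A match says only that these letters stand in the window.

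Taking the brightest kept probe of each gene, PTTG1 and PTTG2 were at least 2-fold lower with siRNA 1, 2 of the 10 genes, against 0.609% of all 19218 genes kept. With siRNA 2 they were joined by ESCO2, 3 of 10, against 1.07% of all genes. PTTG1 and PTTG2 were past 2-fold with both siRNAs, where 0.14% of all genes were, and the list had 0 genes at least 2-fold higher with either siRNA, against 0.77%. The 10 genes had a median log2 ratio of −0.30 (siRNA 1) and −0.59 (siRNA 2), and all genes one of 0.024 on each array. Under median centring these medians were −0.024 and −0.36, where that of all genes was 0.13 and 0.12, and 1 gene, PTTG2, was 2-fold lower on each array. In 7 genes the ratio was negative on both arrays, against 30.3% of all genes. PTTG1IP and SMC3, however, were positive on both when arrays were centred on the median in place of loess. SMC3 was negative on both in 5 of 11 settings, all of which gave it the same ratios, −0.0015 and −0.17. In bulk RNA, fewer cells that express a gene and less of its RNA per cell cannot be told apart.

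No gene of the set passed an adjusted p of 0.05 in the limma test of the mean of both siRNAs, which 0.0052% of genes did. At an unadjusted p under 0.05 there were 5, PTTG1, PTTG2, ESPL1, RAD21 and ESCO2, all lower, against 9.9% of all genes that were lower at that level, and their adjusted p ran from 0.114 to 0.141. RAD21 left this group under median centring (limma, unadjusted p = 0.143) and with the processed signals of the scanner software (limma, unadjusted p = 0.0611). All 15 probes were printed as a single spot on each array. Their technical error was therefore taken from 209 probes spotted 10 times per array, whose log2 ratios at like brightness had an SD between 0.063 and 0.10.

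**Figure D1:**
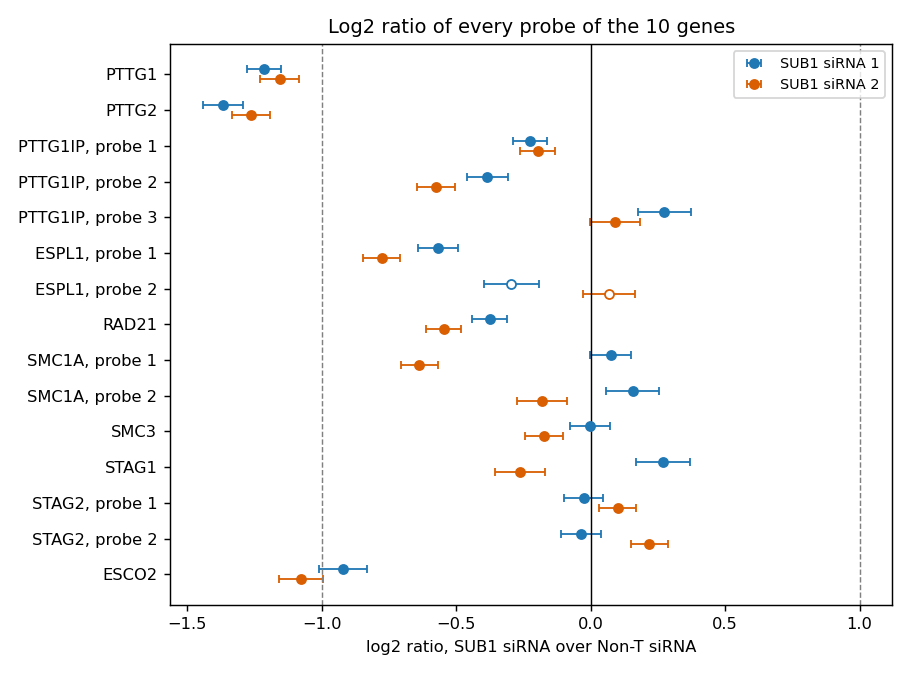
Log2 ratio, knockdown over control (x axis), for each of the 15 probes of the 10 genes, with siRNA 1 in blue and siRNA 2 in orange. Bars are 1 SD of spots of like brightness on the same array, dashed lines mark a 2-fold difference and open points the ESPL1 probe that failed the filter. For the siRNA 1 points of STAG1 and PTTG1IP probe 3 the Non-T signal was not well above background. PTTG1 and PTTG2 lie past the line at −1 on both arrays, and ESCO2 on the siRNA 2 array.

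PTTG1, the securin that holds separase inactive, gave a normalized intensity of 9306 in Non-T cells and 4004 with siRNA 1. On the second array it gave 7987 in Non-T cells and 3580 with siRNA 2. Both SUB1 siRNA channels lay below both Non-T channels, with 43.0% and 44.8% of the Non-T signal left. How many of all genes separate in this way was not counted, for PTTG1 or for the genes below. The log2 ratios of −1.22 and −1.16 differed by less than the technical SD. Their mean was −1.19 (SE 0.095, n = 2 arrays), which ranked 45 from the lowest of 19218 genes (limma, adjusted p = 0.114). Here and below, the SE is that of limma, which borrows from the spread of all genes. With arrays centred on the median in place of loess, its ratios were −0.92 and −0.84, short of 2-fold.

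PTTG2, the intronless copy, read 1169 in Non-T cells against 453 with siRNA 1, and 1025 against 427 with siRNA 2. Again the signal of both knockdown channels lay below that of both controls, 38.8% and 41.6% of it. Its log2 ratios were −1.37 and −1.26, and the mean of −1.32 (SE 0.098, n = 2 arrays) ranked 20 from the lowest (limma, adjusted p = 0.114). Another copy, the pseudogene PTTG3P, which the array names PTTG3, gave 154 against 89.9 with siRNA 1 and 155 against 98.4 with siRNA 2. Its log2 ratios of −0.77 and −0.65 fell short of 2-fold (limma, adjusted p = 0.114). The copies are nearly identical in sequence, so a probe for one may take up RNA of another. How much of the PTTG2 and PTTG3P signal came from PTTG1 RNA was not tested.

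PTTG1IP, which encodes the PTTG1-binding protein, had 3 probes that did not give a common ratio. The brightest read 5169 in Non-T cells against 4416 with siRNA 1, and 4490 against 3917 with siRNA 2, log2 ratios of −0.23 and −0.20 (limma, adjusted p = 0.288), and under median centring these were 0.05 and 0.10. Another probe gave 782 against 599 and 657 against 441, log2 ratios of −0.38 and −0.58. The dimmest probe gave 85.7 against 104 and 93.3 against 99.4. Its Non-T signal was not well above background on the first array, so the 1.21-fold higher ratio there is not a firm value. The brighter probes were both short of 2-fold on each array.

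**Figure D2:**
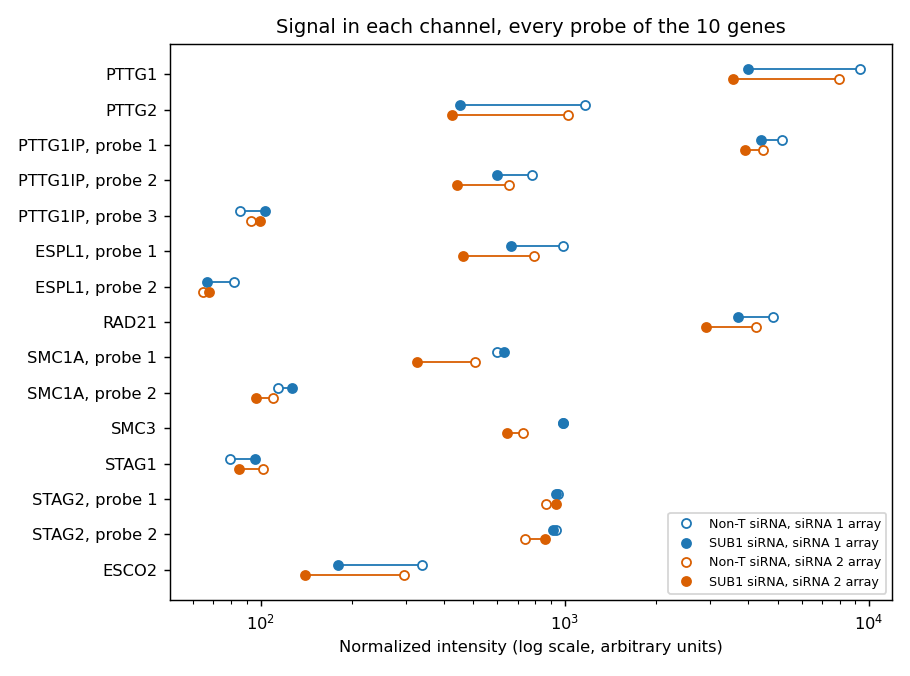
Normalized intensity (x axis, log scale, arbitrary units) of every probe of the 10 genes in each channel, with open circles for Non-T siRNA and filled circles for SUB1 siRNA, and lines that join the channels of an array (blue, siRNA 1; orange, siRNA 2). For PTTG1, PTTG2, ESCO2, RAD21 and the kept ESPL1 probe both filled circles lie to the left of both open ones, as they do for 2 of the 3 PTTG1IP probes. The share of all genes in which this is so was not counted, and levels also carry a shift between the arrays.

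ESPL1, the gene for separase itself, read 985 in Non-T cells and 665 with siRNA 1, and 795 and 463 with siRNA 2. Both knockdown channels were below both control channels, by 1.48-fold and 1.71-fold within their arrays. The log2 ratios were −0.57 and −0.78 with a mean of −0.67 (SE 0.107, n = 2 arrays; limma, unadjusted p = 0.0022, adjusted p = 0.114). The other ESPL1 probe was not well above background in any channel, with readings from 64.6 to 82.0, and nothing is read from its ratio. On both arrays the ratio of ESPL1 was nearer to 0 than those of PTTG1 and PTTG2, a difference that was not tested.

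RAD21, the cohesin subunit that separase cuts, gave 4828 in Non-T cells against 3719 with siRNA 1 and 4246 against 2905 with siRNA 2. The 4 channels did not overlap between treatments. Its log2 ratios were −0.38 and −0.55, with a mean of −0.46 (SE 0.103, n = 2 arrays; limma, unadjusted p = 0.00835, adjusted p = 0.141), and they were smaller under median centring, −0.10 and −0.26. Of the 5 subunits of the ring and its STAG partners, RAD21 was the 1 gene with an unadjusted p under 0.05, which it lost under median centring and with the processed signals of the scanner software, and 0 of 5 were 2-fold lower on either array. The median log2 ratio of these 5 was −0.0015 with siRNA 1 and −0.26 with siRNA 2.

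SMC1A, one of the coiled-coil arms of the ring, differed between the siRNAs. Its brighter probe read 600 in Non-T cells against 631 with siRNA 1, and 506 against 325 with siRNA 2, log2 ratios of 0.07 and −0.64 (limma, adjusted p = 0.451). The dimmer SMC1A probe read 114 against 127 and 110 against 96.8, log2 ratios of 0.16 and −0.18. Both probes were thus at or above the Non-T level with siRNA 1 and below it with siRNA 2. Between the arrays the brighter probe lost 0.24 on the log2 scale in the Non-T channel and 0.96 in the SUB1 siRNA channel, where all genes had median differences of −0.19 and −0.16. With 1 array per siRNA the difference between siRNAs cannot be tested.

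SMC3, the other arm and the substrate of ESCO2, read 990 and 989 on the first array and 730 and 647 on the second. The log2 ratios were −0.0015 and −0.17 (limma, adjusted p = 0.656), and the 95% interval of their mean ran from −0.36 to 0.19. STAG2, which binds the ring in most cohesin of dividing cells, had a pair of probes of like brightness. They gave 952 against 935 and 938 against 914 with siRNA 1, and 870 against 932 and 740 against 860 with siRNA 2. Its log2 ratios were −0.03 and 0.10 for the brighter probe (limma, adjusted p = 0.855) and −0.04 and 0.22 for the other, so both probes were just below the Non-T level with siRNA 1 and above it with siRNA 2. The 95% interval of the mean ratio of STAG2 ran from −0.23 to 0.30, which leaves room for small differences either way.

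STAG1, the alternative to STAG2 on the ring, had 1 probe, which was dim on both arrays. It read 79.5 in Non-T cells and 95.8 with siRNA 1, and 102 and 85.1 with siRNA 2. The Non-T signal on the first array was not well above background, so the 1.20-fold higher ratio there is not a firm value. On that array the log2 ratio was 0.14 without background correction and −0.06 in the authors' log2 ratios. With siRNA 2 the log2 ratio was −0.26, and the mean over both arrays was 0.0031 (limma, adjusted p = 0.993). No direction is given for STAG1.

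ESCO2, the acetyltransferase that locks the ring during replication, gave 339 in Non-T cells and 179 with siRNA 1, and 296 and 140 with siRNA 2. Both knockdown channels lay below both controls, at 52.8% and 47.4% of the Non-T signal. The log2 ratios were −0.92 and −1.08, so the gene was 1.89-fold lower with siRNA 1 and 2.11-fold lower with siRNA 2, on either side of the 2-fold rule. The mean was −0.999 (SE 0.101, n = 2 arrays; limma, unadjusted p = 0.000338, adjusted p = 0.114) and ranked 87 from the lowest of all genes. The side of the rule was set by the processing, as ESCO2 was past 2-fold on both arrays under 2 of 11 settings, and with siRNA 2 its log2 ratio ranged from −1.55 to −0.96 over them. ESCO1, the other cohesin acetyltransferase, which acts outside replication, gave log2 ratios of −0.36 and 0.12, neither near 2-fold.

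**Figure D3:**
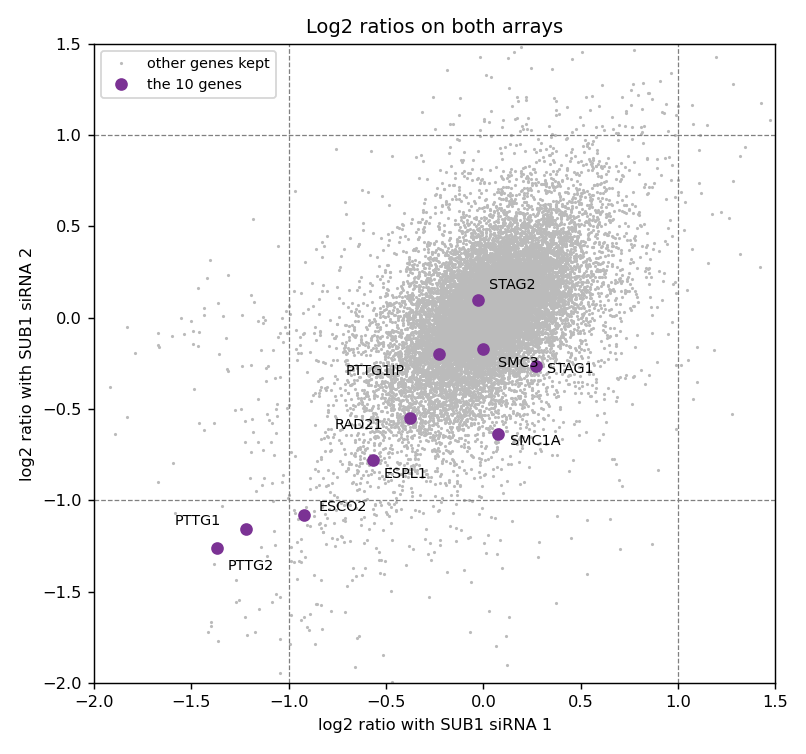
Log2 ratio with SUB1 siRNA 1 (x axis) against that with siRNA 2 (y axis) for all genes kept (grey points, 26 outside the axes) and the 10 genes (purple, named). Dashed lines mark 2-fold; PTTG1 and PTTG2 lie in the lower left corner past both lines and ESCO2 past the siRNA 2 line, while SMC3 and STAG2 lie within the bulk of genes.

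The genes whose pair of ratios was nearest to that of PTTG1 outside these lists were RRM2, which encodes a subunit of ribonucleotide reductase, at −1.14 and −1.25, a probe without a gene symbol, A_24_P349869, at −1.08 and −1.17, and FOXM1, a transcription factor of the G2 and M phases, at −1.07 and −1.24. Likeness was the distance between the pairs over the 2 arrays, which was 0.124, 0.141 and 0.171 on the log2 scale.

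The genes that load, release, protect and replicate with cohesin were taken as a list of 19, all of them kept. None was 2-fold lower with siRNA 1, and 2 of 19 were with siRNA 2, against the 0.609% and 1.07% of all genes given above. With siRNA 2, median centring left 1 of them and the scanner software's processed signals 4, while the count over all 19218 genes went from 205 to 101 and 474. Their median log2 ratios were −0.15 and −0.22. At an unadjusted p under 0.05 in limma there were 8 of 19, 7 lower and 1 higher, against 9.9% of all genes lower and 11% higher, with 0 past an adjusted p of 0.05. The members past 2-fold were CDCA5, or sororin, which shields acetylated cohesin from release, at −0.81 and −1.24 (limma, adjusted p = 0.114), and HASPIN, the kinase that marks histone H3 at centromeres, at −0.49 and −1.07 (limma, adjusted p = 0.137).

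Here each gene is taken by its brightest probe unless stated. By role, the loader genes NIPBL and MAU2 had log2 ratios between 0.02 and 0.24 (siRNA 1) and between 0.12 and 0.33 (siRNA 2). The higher of these were those of MAU2, whose other probe gave 0.23 and 0.34. Dimmer kept probes of NIPBL, however, gave 0.27 and 0.27, and 0.26 and 0.35. The genes PDS5A, PDS5B and WAPL, which govern release of the ring, ranged from −0.32 to 0.12 and from 0.04 to 0.19. A dimmer kept WAPL probe gave −0.13 and −0.17. Those of PDS5A gave 0.06 and 0.27, and 0.07 and −0.11, and those of PDS5B 0.26 and 0.16, and 0.04 and 0.16. Of 7 genes that work with the replication fork while cohesion is built, 6 were negative on both arrays, against 30.3% of all genes. DDX11 was the exception by its brighter probe, while its other probe gave −0.35 and −0.33. A dimmer kept WDHD1 probe gave 0.03 and −0.16, and the other CHTF18 probe −0.46 and −0.61. The 7 genes ranged from −0.54 to 0.14 and from −0.93 to 0.43. The shugoshin genes SGO1 and SGO2, whose products protect centromeric cohesin, and HASPIN were negative on both, from −0.49 to −0.13 and from −1.07 to −0.57. A dimmer SGO1 probe gave −0.34 and −0.28. CTCF, which stops cohesin on DNA in interphase, had −0.04 and −0.0028, and HDAC8, the SMC3 deacetylase, had −0.15 and −0.44. Dimmer kept probes gave −0.19 and 0.05 for CTCF, and −0.07 and 0.03 for HDAC8. With loess 12 of the 19 were negative on both arrays, against 30.3% of all genes. Under median centring 8 of the 19 were. There the median of all genes was 0.13 and 0.12, so the 30.3% does not apply, and the share was not counted. Of 4 meiotic cohesin genes 2 were kept, STAG3 at −0.49 and −0.26 and REC8 at 0.07 and 0.30.

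The regulators of anaphase onset decide when securin is destroyed, and most of them had ratios near or past 2-fold lower. All 8 were kept and by the brightest probe all 8 were negative on both arrays, against 30.3% of all genes, with medians of −0.95 and −1.27. All 8 were negative under median centring too, where the median of all genes was 0.13 and 0.12. The share of all genes was not counted there. Dimmer kept probes of FZR1, a member of this list, gave log2 ratios of 0.02 and 0.03, and of −0.04 and −0.19. At least 2-fold lower were 3 with siRNA 1, 7 with siRNA 2 and 3 with both, against 0.609%, 1.07% and 0.14% of all genes, and 7 were lower at an unadjusted p under 0.05 in limma, against 9.9%, with 0 past adjustment. Median centring left 1 and 5 of them past 2-fold, against 56 and 101 of all 19218 genes. CDC20, which brings securin to the anaphase-promoting complex, had log2 ratios of −0.93 and −1.21, and UBE2C, the complex's ubiquitin-conjugating enzyme, −0.96 and −1.43. The checkpoint genes MAD2L1 and BUB1B, whose products restrain CDC20, had −1.40 and −1.67, and −0.94 and −1.34. CDK1 and its cyclin gene CCNB1, whose kinase also inhibits separase, had −1.04 and −1.76, and −1.08 and −1.002.

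Condensin, the ring complex related to cohesin that compacts chromosomes, was measured by 8 genes, all kept. With siRNA 1 there were 2 at least 2-fold lower, NCAPG at −1.27 and −1.56 on the respective arrays and NCAPD2 at −1.59 and −0.79, and with siRNA 2 only NCAPG, against 0.609% and 1.07% of all genes. The medians were −0.56 and −0.78, 7 of the 8 were negative on both arrays, against 30.3% of all genes, and 7 were lower at an unadjusted p under 0.05 in limma, against 9.9%, with 0 past adjustment. The part of these mitotic genes in the ratios of PTTG1, PTTG2 and ESCO2 was not tested.

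**Figure D4:**
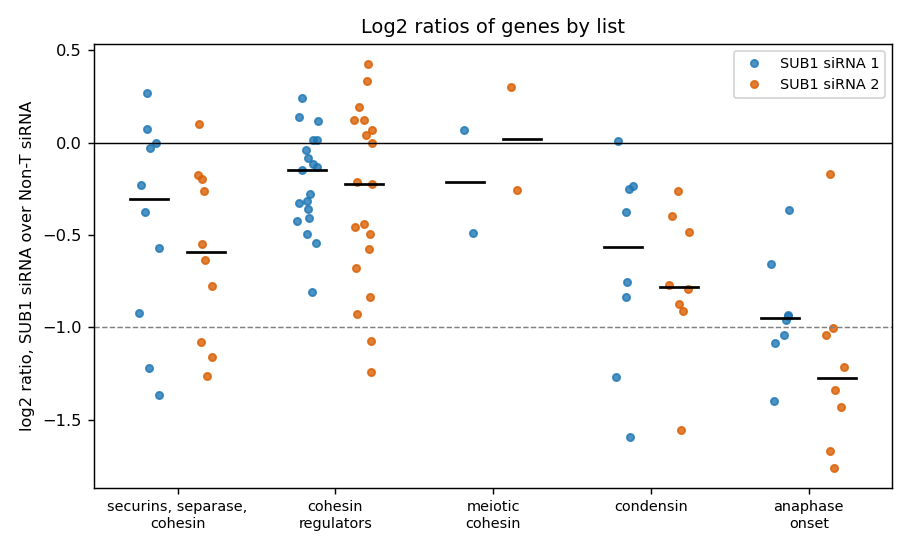
Log2 ratio of each gene (y axis, knockdown over control) in 5 lists, with siRNA 1 in blue, siRNA 2 in orange, list medians as black bars and the dashed line at 2-fold lower. The anaphase onset genes have the lowest medians, −0.95 and −1.27, and the 10 securin, separase and cohesin genes run from below the 2-fold line, where PTTG1 and PTTG2 lie, to above 0.

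Levels in the controls differed between the arrays by a common shift, with some of the 10 genes well away from it. Their Non-T differences ran from −0.44 for SMC3 to 0.36 for STAG1, whose probe was dim. Across all genes the difference between the arrays had an SD of 0.128 in the Non-T channel and 0.318 in the SUB1 siRNA channel on the log2 scale. For the 10 genes the median difference of the second array from the first was −0.20 in Non-T cells and −0.26 with SUB1 siRNA, against −0.19 and −0.16 for all genes. The log2 ratio was lower with siRNA 2 than with siRNA 1 in 6 of the 10 genes, near the 50.4% of all genes in which it was, and the securin genes were among the 4 in which it was not.

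**Figure D5:**
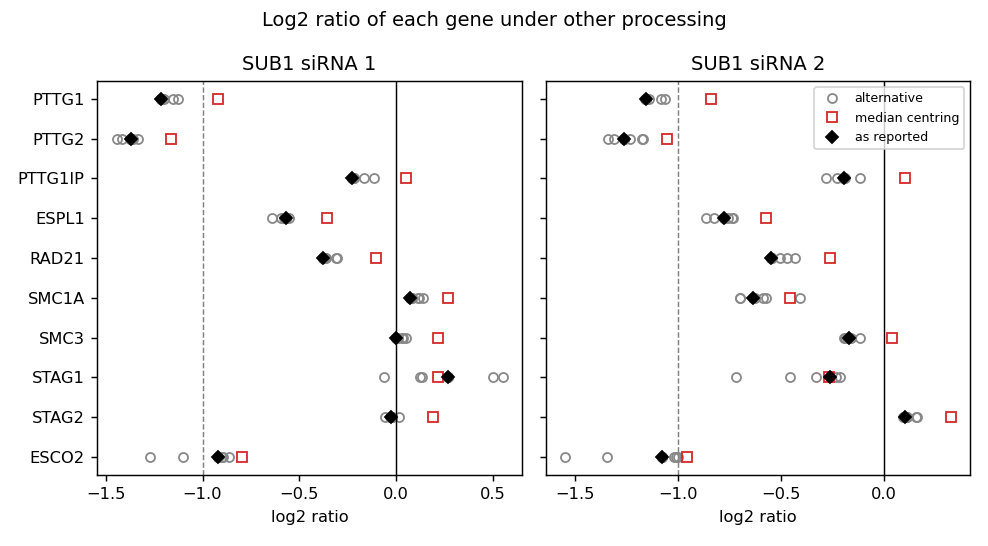
Log2 ratio (x axis) of each of the 10 genes with siRNA 1 (left) and siRNA 2 (right) as reported (black), under median centring (red squares) and under the other alternatives (grey circles). The dashed line is 2-fold lower; PTTG2 lies past it in all settings shown, PTTG1 in all but median centring, and ESCO2 crosses it.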

How the data were processed

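RNA of PC3 cells with SUB1 siRNA (Cy5) or Non-T siRNA (Cy3) was hybridised to 2 arrays. The authors quantified spots with Agilent Feature Extraction and deposited, per spot and channel, the intensity, its local background and a processed intensity. They also deposited a table of log2 ratios, loess-normalized per their methods. Its values correlated across probes at 0.972 and 0.980 with log2 of Cy5 over Cy3 from the scanner files, which settles its direction, with column medians of −0.00545 and −0.00689. It served as an alternative.

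Mean intensities were corrected by normexp (offset 50) and each array was normalized with limma 3.58.1 (R 4.3.3) by loess at a span of 0.3, in which control spots had weight 0 before being left out. Outlier spots (112 and 100) were removed, 0 were saturated, and repeated spots were averaged. The filter on dim probes asked, on both arrays, for 1 channel or more with a share of 0.5 or more of the spots well above background, and the brightest probe stood for its gene. Of the 19218 genes kept, 11892 were named by accession, 877 by symbol and 360 by synonym through a RefSeq table of GRCh38.p14, while 6089 keep the array's own name. Normalized intensity is the channel value after loess and is not comparable between probes. Where the Non-T channel of a kept probe was not well above background, the ratio printed is the measured one and is not a bound.

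Genes were called by the 2-fold rule of the study's methods. limma further tested whether the mean over both siRNAs was 0 (intercept, eBayes, Benjamini-Hochberg over all genes kept), which leaves out the spread of the control. The arrays are separate samples by their labels only, so the p-values measure the spread between these arrays, and the number of arrays limits the precision. The test was also run on simulated ratios, with 200 genes changed by 2 on the log2 scale, equal noise in all genes and no dye bias. That setting differs from these data, so it does not show that the p-values hold here. The genes and lists were chosen with earlier results of these data known. Named were all probes of the 10 genes, SUB1, PTTG3P, at most 6 genes per other list (those past 2-fold, otherwise the 3 largest mean ratios) and the 3 genes nearest to PTTG1; genes named beyond this to describe roles were added after their values were seen. Alternatives were other background corrections, normalizations, filters, probe summaries and limma priors. One marker gene is not reported here.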

Additional observations from a re-analysis of the deposited data

Results flagged for a closer look

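SMC1A and STAG2 were the genes of the set whose ratios had opposite signs on the arrays with all channels of the probe well above background. The log2 ratio with siRNA 2 minus that with siRNA 1 was −0.71 for SMC1A and 0.13 for STAG2. The differences were not tested, since each siRNA had 1 array. The siRNA 1 ratio of SMC1A lay between 0.07 and 0.27 over the settings, and that of STAG2 between −0.06 and 0.19. STAG1 also had opposite signs, but its probe was dim and its Non-T signal on the siRNA 1 array was not well above background.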

How the results depend on the processing

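Over the alternatives tried, 77 of 90 counts and medians of the set stayed close to those reported. Close meant within 1.5 times the reported count or within the technical SD of the reported median. Median centring, which left the median of all genes at 0.13 and 0.12, moved the median of the 10 genes to −0.024 with siRNA 1 and −0.36 with siRNA 2, left 1 gene (PTTG2) at least 2-fold lower with siRNA 1, with siRNA 2 and with both, and left 1 cohesin regulator past 2-fold. Relative to those medians PTTG1 was at −1.05 and −0.96 and ESCO2 at −0.92 and −1.08. The processed signals gave 4 cohesin regulators past 2-fold and a siRNA 2 median of −0.71. That median was −0.50 in the authors' log2 ratios, −0.48 with the mean of all kept probes and −0.41 over every kept probe on its own, which also gave −0.13 with siRNA 1. Without a filter on dim probes 3 genes, PTTG1, PTTG2 and ESCO2, passed in limma at an adjusted p of 0.0469, where 129 genes did in all; over all settings the adjusted p of these 3 ran from 0.0469 to 0.175. Among 198 single gene values 156 were within the technical SD, 36 moved by more, 4 fell short of 2-fold and 2 passed it. Of the 198, 12 changed sign. The cause of these moves was not tested. Part of the 156, and of the 77 above, is agreement by construction. Keeping outlier spots or changing the filter on dim probes left the ratios of the genes still kept as reported. Averaging kept probes left genes with 1 kept probe as reported. STAG1 was lost under the strict filter. Leaving out an array left no test, and no paired analysis was possible because each siRNA had 1 array, which already holds its own control. The dim probes of STAG1, PTTG1IP and ESPL1 limit what their ratios show.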
